A study of Rattus norvegicus with 15 samples.

Results

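Skeletal muscle builds its thick filaments from myosins, and the RNA of 10 of their genes was followed through life in the rat knee. The set held the heavy chain genes Myh8, Myh3, Myh1, Myh2, Myh4 and Myh7 and the light chain genes Myl1, Mylpf, Myl2 and Myl3. A gene was measured where a probe set of the array carried its symbol and no other. Where a gene had several, the brightest on average was taken. By that rule 5 of the 10 genes were measured, namely Myh8, Myh7, Myl1, Mylpf and Myl3, out of 18166 genes that could be measured this way. Mylpf was found under its newer symbol Myl11. Myh3, Myh1, Myh2 and Myh4 occurred only on 4 probe sets that list several heavy chains at once, which are given below by their number and credited to no single gene. Myl2 was not measured.

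The samples were articular cartilage from the right knee of Sprague-Dawley rats, taken at 5 stages of life, with 3 samples in each. T0 was newborn, T1 was youth and T2 was adult, and the elderly samples were split into an early stage (T3) and a latter stage (T4). No genotype or treatment set the stages apart. Knees were harvested individually and the 3 samples are labelled as biological replicates. No label ties a sample to its own animal, so p-values measure only the spread between these samples. Ages and sex are not given here. The labels of T1 replicate 3 conflict: its source name says adult, the others say youth. It counts as youth below, and results that rest on it are given with and without it.

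Myosin is a motor made of a pair of heavy chains, which split ATP and pull on actin, each carrying an essential and a regulatory light chain. Muscle fibres differ in speed according to the heavy chain they hold, and each fibre type also has its own light chains, troponins and Z-disc proteins. In rodents, fibres form with the embryonic chain Myh3 and the perinatal chain Myh8. After birth these are replaced by the fast adult chains Myh2, Myh1 and Myh4, while slow fibres keep Myh7, which is also a heart chain. Chondrocytes are not known to build sarcomeres, and the muscles around the knee attach close to the joint surface.

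All values below are log2 signals of the arrays, in which 1 unit is a doubling, and differences are between stage means. Signals of different probe sets do not share a scale, so only changes are compared between genes. The table has no call of presence, so no gene can be said to be absent. A change was called where limma's Benjamini-Hochberg adjusted p over 36685 probe sets was under 0.05.

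Cartilage markers were high in the younger samples and lower in the older ones. The mean signal of the 9 measured of 10 cartilage markers lay at 10.1 to 10.3 in T0, 9.91 to 10.2 in T1, 8.88 to 9.53 in T2, 7.18 to 8.18 in T3 and 6.04 to 7.03 in T4. Markers of skeletal muscle were present in the same samples: the mean of the 5 measured of 6 (Acta1, Ckm, Tnnt3, Tnni2 and Neb) was 10.3 to 10.9 in T0, 8.36 to 9.03 in T1, 5.34 to 5.56 in T2, 5.90 to 6.44 in T3 and 6.22 to 7.62 in T4. In bulk tissue, fewer muscle cells and less RNA per muscle cell cannot be told apart. Over the same stages the means of 6 measured of 8 marrow and erythroid markers were 5.17 to 6.26 in T0, 10.5 to 10.6 in T1, 10.5 to 10.8 in T2, 9.99 to 10.5 in T3 and 6.38 to 9.29 in T4. The part of these shifts in the myosin results was not tested. Arrays of T4 were the least alike, with a mean correlation of 0.791 to 0.876 to their own stage, against 0.973 to 0.978 in T0, T1 and T2.

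The perinatal heavy chain was found at birth and at no later stage at a comparable level. Myh8 signals were 11.47, 11.74 and 11.33 in T0, 3.62, 4.02 and 3.74 in T1, 3.38, 3.73 and 3.84 in T2, 4.27, 4.25 and 3.91 in T3 and 4.11, 3.73 and 3.93 in T4. All 12 later arrays lay far below the 3 newborn ones, and the later stages lay close together. Myh8 fell by 7.72 (SE 0.20) in T1 against T0, with a limma adjusted p of 5.26e-11. Its later signals lay below the array medians and are not shown to be above background, so the size of the fall is a lower bound. From T1 on, no step of Myh8 was called, and the 95% interval of the T2 minus T1 difference ran from -0.58 to 0.29.

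The fast light chains fell in T1 as well, but much less. Myl1, the fast essential light chain, had 9.68, 10.56 and 9.53 in T1, against 12.20, 12.45 and 12.19 in T0. Mylpf, the fast regulatory light chain, had 8.90, 9.11 and 8.57 in T1, against 11.93, 11.93 and 11.57 in T0. For both genes the youth arrays all lay below the newborn arrays and far above the adult ones. Myl1 fell by 2.35 (SE 0.52, 5.11-fold, limma adjusted p = 0.0103) and Mylpf by 2.95 (SE 0.57, 7.71-fold, limma adjusted p = 0.00399). The Myl1 call rested on T1 replicate 3: without it the fall was 2.16 and the limma adjusted p 0.0559, in a range from 0.000125 to 0.432 over 26 alternatives.

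The slow myosins varied widely among the youth arrays. Myh7, the slow heavy chain, had 8.82, 8.81 and 4.90 in T1, against 9.13, 8.48 and 7.62 in T0. Myl3, the slow essential light chain, had 8.30, 8.44 and 4.75 in T1, against 10.22, 10.15 and 8.76 in T0. For Myh7 a pair of youth arrays lay within the newborn range and T1 replicate 3 lay far below it, and for Myl3 all youth arrays lay below the newborn ones, with T1 replicate 3 again apart. The Myh7 difference was -0.90 (SE 0.77, limma adjusted p = 0.743) and turned to 0.41 without T1 replicate 3. Myl3 fell by 2.55 (SE 0.73, limma adjusted p = 0.0466), a call that was lost in 17 of 26 alternatives, with limma adjusted p from 0.0121 to 0.177. Without T1 replicate 3 the Myl3 difference was -1.34 (limma adjusted p = 0.0743).

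Counting the measured myosins, 4 of 5 fell in T1 against T0 and none rose, where 3.54% of all probe sets fell, 4.01% rose and 7.56% changed either way. The median change of the 5 genes was -2.55, beside -0.03 over all probe sets. Without T1 replicate 3 the fallen genes were 2 of 5, Myh8 and Mylpf, and with that array placed in T2 only Myh8 fell. Of 36685 probe sets, 1884 were called without the array and 1777 with it placed in T2, against 2772 in the main fit.

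**Figure D1:**
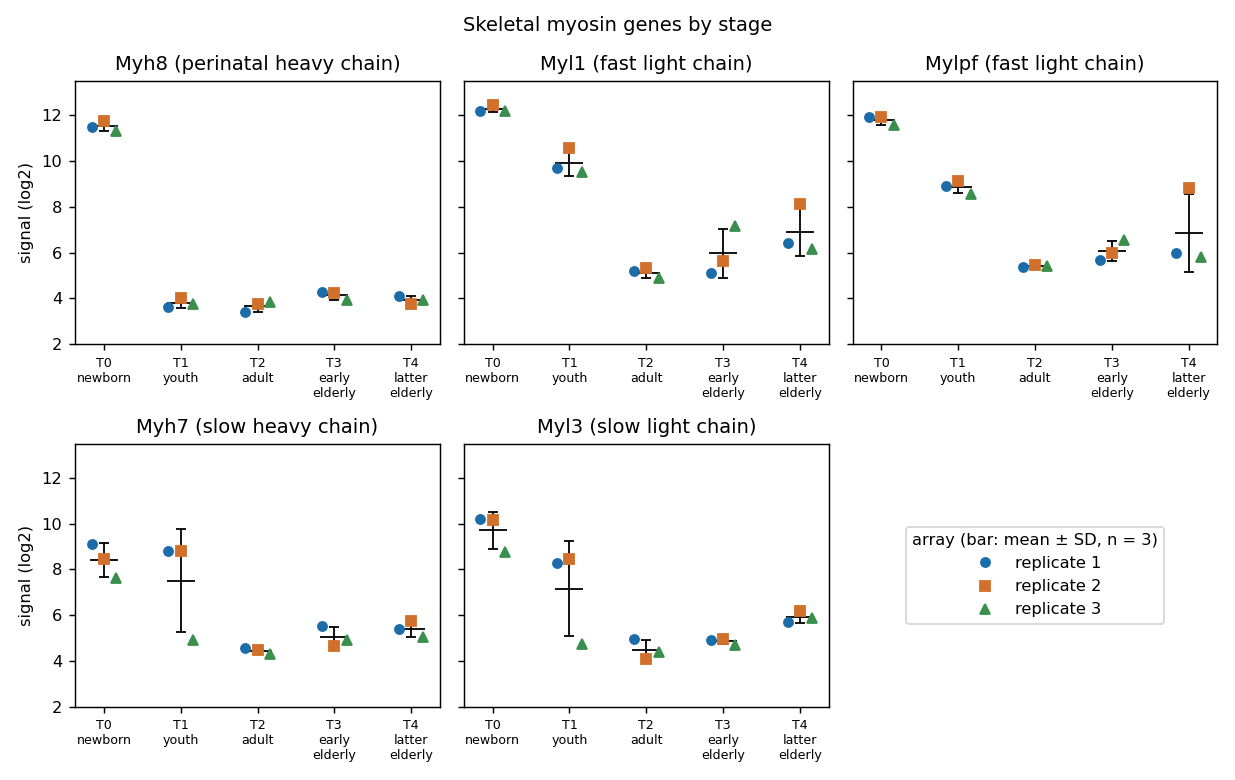
Log2 signal of the 5 measured myosin genes (vertical axes) at the stages T0 to T4 (horizontal axes), with a point per array and bars for the mean and SD of 3 arrays. Myh8 is high in T0 alone, Myl1 and Mylpf step down at T1 and again at T2, and Myh7 and Myl3 have 1 low array in T1, replicate 3.

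The difference between the signals of Myh8 and of another myosin was taken within each array, and only its change between stages is read. Myh8 minus Myl1 was -6.06, -6.54 and -5.79 in T1, against -0.73, -0.71 and -0.86 in T0. No youth array came near a newborn one. The difference between the stages was -5.36 for Myh8 minus Myl1, -4.77 for Myh8 minus Mylpf, -6.82 for Myh8 minus Myh7 and -5.17 for Myh8 minus Myl3. Myh8 is not shown to be above background in T1, so the sizes against Myl1 and Mylpf are lower bounds. In the pairs with Myh7 and Myl3, T1 replicate 3 stood apart. Myh8 minus Myh7 was -5.20, -4.79 and -1.16 in T1, and Myh8 minus Myl3 was -4.68, -4.42 and -1.01. In T1 replicate 3, Myh7 (4.90) and Myl3 (4.75) lay below the array median of 4.98, like Myh8, so its values compare dim signals. Without that array the differences between the stages were -8.10 for Myh8 minus Myh7 and -6.35 for Myh8 minus Myl3. Each of the 4 pairs had a two-sided exact permutation p of 0.1, also after adjustment over the 4 pairs, which is the smallest that 3 arrays against 3 allow. A test of Myh8 against the fast chain Myh4 could not be made, since Myh4 has no probe set of its own.

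The shared probe sets give a view of the remaining heavy chains, which lie side by side on chromosome 10 in the order Myh3, Myh2, Myh1, Myh4 and Myh8 (RefSeq annotation of GRCr8), while Myh7 lies on chromosome 15. These genes are near-copies, and which of them gave a signal cannot be told from a probe set that lists several. Probe set 17646882, annotated to Myh3, Myh2, Myh4 and Myh1, had 6.23, 5.62 and 5.32 in T1, against 11.70, 11.70 and 10.89 in T0. It had the newborn pattern of Myh8: all 12 later arrays lay between 5.22 and 6.28. It fell by 5.70 (SE 0.27, 52.1-fold) in T1, with a limma adjusted p of 3.45e-08.

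A pair of the shared probe sets did the opposite and peaked in youth. Probe set 17647051, annotated to Myh4, Myh2, Myh1 and Myh3, had 4.93, 5.07 and 4.44 in T0, 9.80, 9.90 and 9.74 in T1, 4.82, 3.71 and 4.41 in T2, 4.43, 5.19 and 5.12 in T3 and 4.96, 4.26 and 4.04 in T4. The 3 youth arrays stood alone, and T1 replicate 3 was level with the others. It rose by 5.0 (SE 0.32, limma adjusted p = 3.42e-07) in T1 against T0 and fell by 5.50 (SE 0.32, limma adjusted p = 2.39e-06) in T2 against T1. With T1 replicate 3 placed in T2, its rise remained called and its fall did not (limma adjusted p = 0.675, range 2.15e-08 to 0.675).

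Probe set 17647009, annotated to Myh1, Myh2, Myh4 and Myh3, had 5.48, 5.43 and 5.78 in T0, 7.51, 8.80 and 8.40 in T1, 4.51, 4.17 and 4.91 in T2, 5.79, 5.94 and 6.75 in T3 and 6.90, 8.04 and 6.17 in T4. It too was highest in youth and lowest in adults, and of its latter-stage elderly arrays replicate 2 lay in the youth range and the others below it. It rose by 2.67 (SE 0.43, limma adjusted p = 0.0011) in T1 and fell by 3.71 (SE 0.43, limma adjusted p = 0.000966) in T2. Both calls were lost with T1 replicate 3 placed in T2, with limma adjusted p of 0.181 (range 2.11e-05 to 0.181) and 0.931 (range 1.63e-05 to 0.931). Its T3 minus T2 difference of 1.63 had a limma adjusted p of 0.0872. Probe set 17646924, which lists Myh13 beside the same chains, lay between 4.2 and 5.19 in every array and had no called step.

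**Figure D2:**
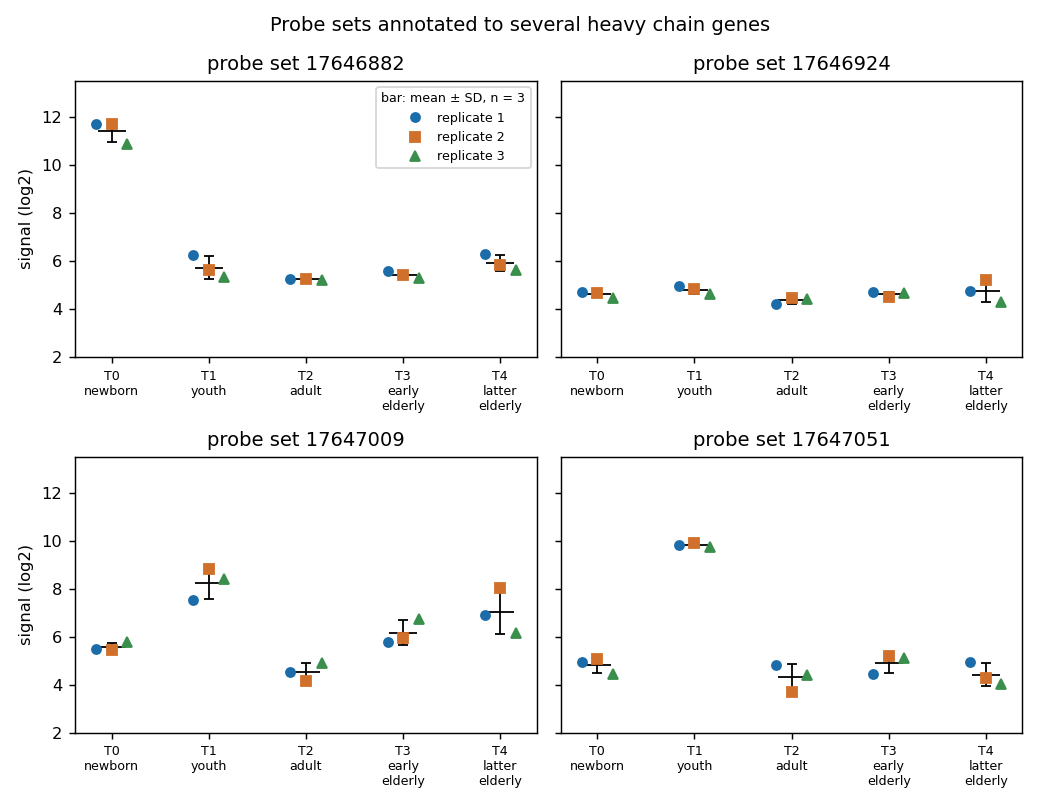
Log2 signal (vertical axes) of the 4 probe sets that list several heavy chain genes, at the stages T0 to T4 (horizontal axes), with a point per array and bars for the mean and SD of 3 arrays. Probe set 17646882 is high in T0 alone, 17647051 in T1 alone, 17647009 peaks in T1, and 17646924 is flat. The T3 and T4 arrays of 17647009 lie above its T2 arrays, but neither later step was called in the main fit.

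In adults the fast light chains fell again. Myl1 had 5.17, 5.32 and 4.86 in T2, against 9.68, 10.56 and 9.53 in T1. Mylpf had 5.35, 5.43 and 5.40 in T2, against 8.90, 9.11 and 8.57 in T1. The 3 adult arrays lay close together and well below every youth array. Myl1 fell by 4.81 (SE 0.52, 28.0-fold, limma adjusted p = 0.000519) and Mylpf by 3.47 (SE 0.57, 11.1-fold, limma adjusted p = 0.0095).

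Of the 5 measured myosins, 2 fell in T2 against T1, and none rose, where 0.403% of all probe sets fell, 0.488% rose and 0.891% changed either way. T2 minus T1 and T1 minus T0 share the youth arrays, so their values are not independent. Myh7 had 4.55, 4.49 and 4.32 in T2 and Myl3 had 4.97, 4.07 and 4.40, all near the low youth array of each gene. Their differences were -3.06 (SE 0.77, limma adjusted p = 0.0911) and -2.68 (SE 0.73, limma adjusted p = 0.126). Without T1 replicate 3 both fell, Myh7 by 4.36 (limma adjusted p = 0.00015, range 0.00015 to 0.42 over 26 alternatives) and Myl3 by 3.89 (limma adjusted p = 0.000402, range 0.000402 to 0.526), which made 4 of 5. The Mylpf call was lost without T1 replicate 1, T1 replicate 2 or T2 replicate 3, with limma adjusted p of 0.0519, 0.0549 and 0.0509, which left 1 of 5 called in each case. It was also lost, like that of Myl1, with T1 replicate 3 placed in T2, and its limma adjusted p ran from 1.67e-05 to 0.847. With that array placed in T2, only 9 of 36685 probe sets were called at this step, against 327 in the main fit.

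From birth to adulthood all 5 measured myosins fell, where 6.19% of all probe sets fell, 6.51% rose and 12.7% changed either way. Against T0, Myh8 fell by 7.86 in T2, Myl1 by 7.16, Mylpf by 6.42, Myl3 by 5.23 and Myh7 by 3.96, with SE from 0.20 to 0.77. All 5 calls held in each of 26 alternatives. The limma F test over the 5 stages called all 5 genes too, beside 60.1% of all probe sets. Arrays of T2 and T0 did not overlap for any of the 5 genes. The share of all probe sets without overlap was not computed, so this count has no background to be read against.

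**Figure D3:**
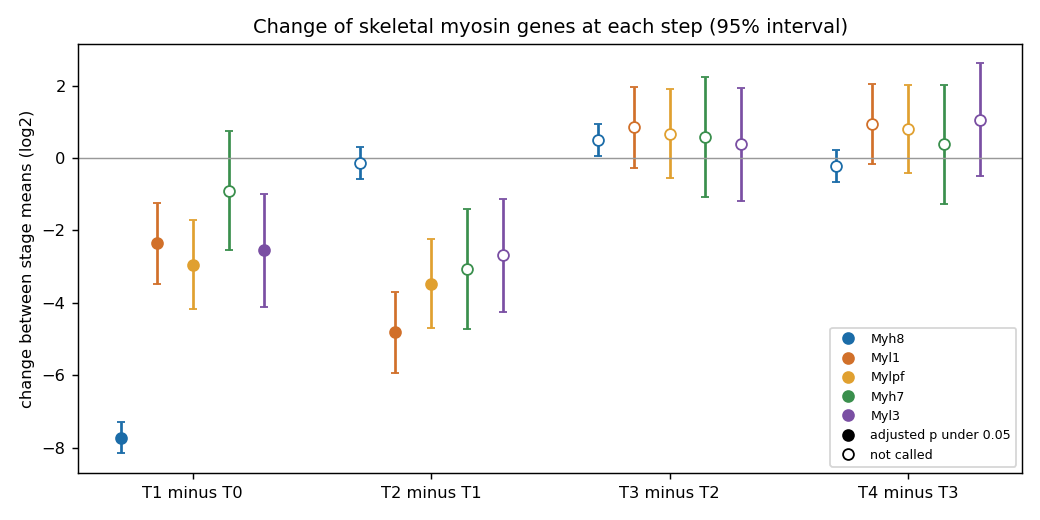
Difference between successive stage means in log2 units (vertical axis) for the 5 measured myosin genes at each step (horizontal axis), with 95% intervals. Filled points passed a limma adjusted p of 0.05: 4 genes at T1 minus T0, 2 at T2 minus T1 and none at the later steps.

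RefSeq lists transcription starts for the 5 measured myosins. The windows before those of the light chains are shown because Myl1 and Mylpf moved together and Myl3 parted from them in T1 replicate 3. Each is the 250 bases before a transcription start in GRCr8, and Myl1 has a pair of starts. Capitals mark 3 motifs searched in both strands: the E-box CANNTG, bound by MyoD-family factors, and the MEF2 and CArG motifs, bound by MEF2 and serum response factor.
Myl1 first start, chr9:75907697-75907946, minus strand: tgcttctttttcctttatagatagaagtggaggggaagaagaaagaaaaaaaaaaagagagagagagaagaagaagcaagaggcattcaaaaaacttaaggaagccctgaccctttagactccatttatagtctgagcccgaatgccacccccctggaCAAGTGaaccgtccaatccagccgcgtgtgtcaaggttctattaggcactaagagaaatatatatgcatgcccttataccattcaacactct
Myl1 second start, chr9:75897800-75898049, minus strand: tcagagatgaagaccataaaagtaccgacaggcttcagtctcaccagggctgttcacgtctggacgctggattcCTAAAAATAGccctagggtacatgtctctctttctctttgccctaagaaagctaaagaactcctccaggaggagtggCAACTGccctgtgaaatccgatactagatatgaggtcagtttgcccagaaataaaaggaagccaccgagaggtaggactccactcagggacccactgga
Mylpf, chr1:191260039-191260288, plus strand: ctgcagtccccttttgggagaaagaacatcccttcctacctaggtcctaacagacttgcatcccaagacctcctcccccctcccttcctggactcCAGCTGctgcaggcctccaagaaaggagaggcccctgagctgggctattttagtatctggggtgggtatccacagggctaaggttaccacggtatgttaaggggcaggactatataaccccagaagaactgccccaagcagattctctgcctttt
Myl3, chr8:119616844-119617093, plus strand: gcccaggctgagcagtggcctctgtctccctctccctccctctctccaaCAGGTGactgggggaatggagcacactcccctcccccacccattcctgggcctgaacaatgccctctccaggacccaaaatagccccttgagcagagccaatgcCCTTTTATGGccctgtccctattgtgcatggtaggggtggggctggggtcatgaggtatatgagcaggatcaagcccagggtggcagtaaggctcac

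Each of the 4 light chain windows held 1 E-box, at -92 and -99 for the starts of Myl1, -155 for Mylpf and -201 for Myl3. The MEF2 motif occurred only before the second start of Myl1, at -176, and the CArG motif only in Myl3, at -97. The window of Myh7 held 3 E-boxes and that of Myh8 none of the 3 motifs. Both of these windows end in mostly C and T followed by AG, like the end of an intron. Whether they lie before a true transcription start was not checked, so their counts may not describe the promoters. An E-box was found in 65.5% of 33469 windows of this length, the MEF2 motif in 2.96% and the CArG motif in 1.5%. A match describes the letters and shows no binding.

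The low slow myosins of T1 replicate 3 came with other slow-fibre genes. In that array Myh7 was lower by 3.91 than the mean of the other youth arrays, and Myl3 by 3.62. Its median probe set was level with theirs, and 28 of 36685 lay lower by over 2 and 25 higher by over 2. The lower ones included 12 genes with a symbol of their own: Myh7, Myl3, the slow troponins Tnni1 and Tnnt1, the slow and cardiac troponin Tnnc1, the Z-disc protein Myoz2, the stretch-responsive Ankrd2, the muscle LIM protein Csrp3, and Ear1, Ear1l1, Rnase17 and Epx, of which the last is an eosinophil peroxidase.

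Several slow-fibre genes were low in this array while several fast-fibre genes were not, a choice of genes made after the values were seen. Tnni1 had 7.91, 7.43 and 5.01 in T1 replicates 1, 2 and 3, Tnnt1 had 7.20, 7.34 and 4.89, and Myoz2 had 7.45, 7.49 and 4.56. In each, replicate 3 lay near the adult mean, which was 4.55, 4.53 and 4.16. The fast troponins Tnnt3 (8.61, 9.08 and 8.71) and Tnnc2 (9.21, 9.32 and 8.84) differed less over the 3 arrays. So did the fast-fibre actinin Actn3 (8.04, 8.54 and 7.86). In these, replicate 3 lay below the mean of the others by 0.14, 0.43 and 0.43. It was lower by 0.59 in Myl1, 0.44 in Mylpf and 0.11 in probe set 17647051. Not every gene took either course: the slow myosin-binding protein C, Mybpc1, had 6.91 in replicate 3, which was 1.14 below the other youth arrays and 2.30 above the adult mean. Others lower in replicate 3 included the actinin Actn2 by 1.83, Cryab by 1.59 and the tendon gene Tnmd by 1.56. The oxygen store Mb was lower by 1.34, Casq1 by 1.22 and Neb by 1.05. The mean of the muscle markers was 8.36 in this array, against 8.69 and 9.03 in the other youth arrays, and its mean correlation was 0.977 with those and 0.963 with the adult arrays.

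**Figure D4:**
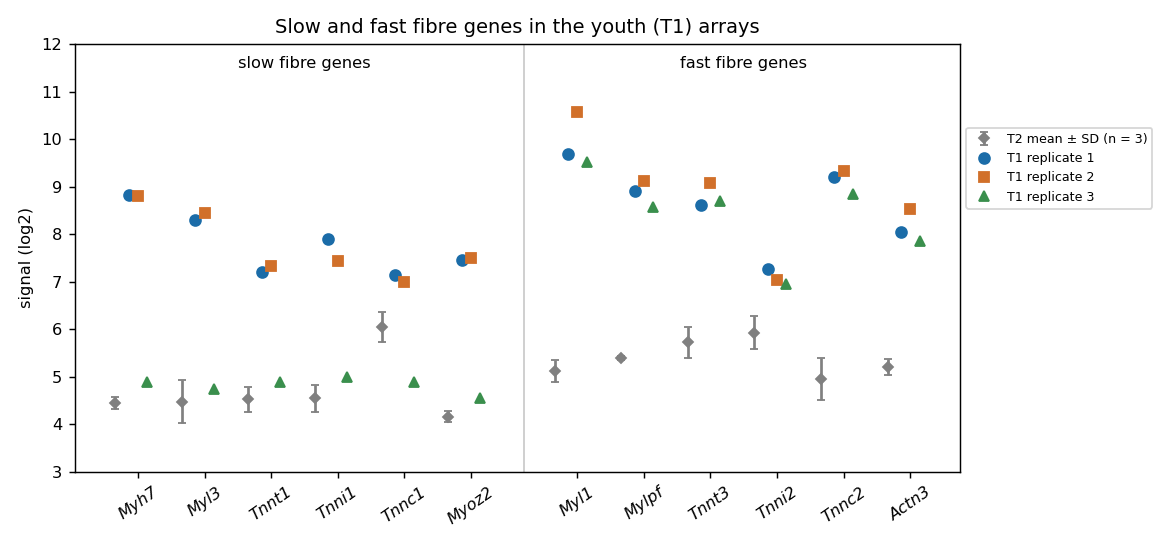
Log2 signal (vertical axis) of 6 slow-fibre and 6 fast-fibre genes (horizontal axis), with the adult mean and SD of 3 arrays and a point for each youth array. T1 replicate 3 lies near or below the adult mean for the slow-fibre genes, and nearer the other youth arrays for the fast-fibre genes. Genes between these courses, such as Actn2 and Mybpc1, are not shown.

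Neither step after adulthood had a called myosin. In T3 against T2, 0 of 5 were called by limma, where 0.15% of all probe sets were (0.112% lower and 0.0382% higher). An unadjusted limma p under 0.05 was found for 1 of 5 (Myh8, difference 0.49), near the share of 19.8% over all probe sets. In T4 against T3, 0 of 5 were called, where 42.2% of all probe sets were. At that step 0 of 5 had an unadjusted limma p under 0.05, beside 50.9% of all probe sets. With array weights Myh8 was called at T3 minus T2 (0.53, limma adjusted p = 0.0338, range 0.0338 to 0.511 over 25 alternatives). That fit called 10464 of 36685 probe sets at T3 minus T2, against 55 in the main fit.

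The fast light chains of the elderly lay mostly above the adult arrays, with wide spread. Myl1 had 5.10, 5.63 and 7.16 in T3 and 6.42, 8.11 and 6.17 in T4. Mylpf had 5.66, 5.97 and 6.56 in T3 and 5.98, 8.82 and 5.78 in T4. For Mylpf all 6 elderly arrays, and for Myl1 all 3 of T4, lay above every adult array, a contrast of T4 with T2 that was not tested. T3 replicate 3 and T4 replicate 2 were the highest of their stages for both genes, and also for the muscle markers, at 6.44 and 7.62, for Tnnc2, at 7.35 and 8.36, and for probe set 17647009. Myh8 did not share this, with 3.91 and 3.73 in those arrays, nor did probe set 17647051, with 5.12 and 4.26.

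The slow myosins were more even in the elderly. Myl3 had 5.70, 6.18 and 5.87 in T4, against 4.92, 4.96 and 4.70 in T3, without overlap, and Myh7 had 5.40, 5.76 and 5.07 in T4, against 5.54, 4.64 and 4.92 in T3. The T4 minus T3 differences were 1.05 (SE 0.73, limma adjusted p = 0.255) for Myl3 and 0.38 (SE 0.77, limma adjusted p = 0.714) for Myh7, and 0.94 (SE 0.52, limma adjusted p = 0.16) for Myl1. Myl3 was called without T1 replicate 3 (limma adjusted p = 0.0301, range 0.0246 to 0.392 over 24 alternatives), and Myl1 without T3 replicate 3 (1.53, limma adjusted p = 0.0294, range 0.0294 to 0.582). Dim signals moved upward in the same arrays: the median of 1185 olfactory receptor genes was 3.57 to 4.38 in T4, against 3.00 to 3.41 in T3. Its part in these values was not tested.

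Partners of myosin in the sarcomere fell along with it, in lists chosen with earlier results of these data known. In T1 against T0, 14 of 17 measured thin filament and Z-disc genes fell and none rose (median -2.21), where 3.54% of all probe sets fell and 4.01% rose at this step, the share beside which the counts of the other lists stand too. Examples were the Z-disc genes Ldb3 (-2.46, SE 0.24), Myoz1 (-2.51, SE 0.30) and Myot (-1.94, SE 0.27) and the fast troponin Tnni2 (-2.09, SE 0.29). Actn3 was at 0.21 (SE 0.31) and was not called. Of 8 thick filament partners and M-band genes 5 fell, among them Myom2 (-3.02, SE 0.30), Myom1 (-2.34, SE 0.32), Mybpc1, the slow myosin-binding protein C (-3.25, SE 0.38), and Mybph (-2.15, SE 0.25).

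Against that direction, Mybpc2 and Pvalb rose. Mybpc2, the myosin-binding protein C of fast fibres, had 7.13, 7.33 and 7.03 in T1, against 6.30, 6.21 and 5.88 in T0 (difference 1.03, SE 0.21, limma adjusted p = 0.0061). Pvalb, the calcium buffer of fast rodent fibres, had 7.79, 7.47 and 6.95 in T1, against 4.74, 4.48 and 4.44 in T0 (difference 2.85, SE 0.33, limma adjusted p = 7.46e-05). Both had no overlap between stages, and both fell in adults, Mybpc2 by 2.57 and Pvalb by 3.48. With T1 replicate 3 placed in T2 the rise of Pvalb remained called (limma adjusted p = 0.0224, range 8.08e-07 to 0.0224) and that of Mybpc2 did not (limma adjusted p = 0.447, and 0.0176 without that array). Both adult falls were lost there, with limma adjusted p of 0.642 for Mybpc2 (range 1.59e-07 to 0.642) and 0.484 for Pvalb (range 4.09e-06 to 0.484). Of the 11 calcium and energy genes, 9 fell in T1 (median -1.66), Pvalb rose and the oxygen store Mb was not called (0.27, SE 0.58). The largest falls were those of the calcium-store protein Casq2 (-5.04, SE 0.29) and the calcium pump regulator Sln (-4.90, SE 0.39).

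Genes that serve myosin assembly and fibre formation also fell in T1. Of 6 measured folding and assembly genes 4 fell: Smyd1 (-1.88), Trim55 (-1.35), the myosin chaperone Unc45b (-1.26) and Trim54 (-1.95). Of 11 genes in the list of myogenic factors, 9 fell and none rose (median -1.41). That list also held acetylcholine receptor subunits and a fusion protein. Among the fallen were the receptor subunits Chrna1 (-3.07, SE 0.25) and Chrnd (-2.93, SE 0.28), the fusion protein Mymk (-3.21, SE 0.28) and the transcription factor Myf6 (-2.22, SE 0.29). Without T1 replicate 3 the fallen genes were 12 of 17 thin filament and Z-disc, 5 of 8 thick filament, 6 of 11 calcium and energy, 4 of 6 assembly and 8 of 11 myogenic genes. With that array placed in T2 they were 8 of 17, 4 of 8, 2 of 11, 3 of 6 and 8 of 11. Of 36685 probe sets, 1884 were called at this step without the array and 1777 with it placed in T2, against 2772 in the main fit. Over the same step, all 6 marrow and erythroid markers and 4 of 7 bone markers rose, and 2 of 8 tendon and synovial markers fell, the tendon gene Tnmd by 2.64. Of 6 adipocyte markers 3 rose, with Adipoq at 3.20 (SE 0.30), and of 5 smooth muscle and pericyte markers 2 fell, with Des, which skeletal muscle also makes, at -3.07 (SE 0.33). Their part in the muscle values was not tested.

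In adults, genes of the contractile lists fell again, and no gene of the myogenic list was called. In T2 against T1, 9 of 17 thin filament and Z-disc genes fell (median -2.23), where 0.403% of all probe sets fell and 0.488% rose. Acta1, skeletal actin, was at -4.23 (SE 0.31), Neb at -4.26 (SE 0.39) and Actn3 at -2.93 (SE 0.31). Of 8 thick filament partners 7 fell (median -2.49), among them Mybpc2, Ttn (-3.92, SE 0.38) and Xirp2 (-2.75, SE 0.30), and of 11 calcium and energy genes 8 fell, among them Casq1 (-4.00, SE 0.43), Ckm (-3.61, SE 0.43) and Eno3 (-2.85, SE 0.28). None of 11 myogenic factors was called (median -0.10), the furthest being Mef2c at -0.88 (SE 0.35), and none of 6 assembly genes, the furthest being Trim54 at -1.37 (SE 0.42). The median over all probe sets was 0.02. Markers of other cells moved at this step too: 3 of 6 adipocyte markers fell (median -1.25), with Adipoq at -2.44 (SE 0.30), as did Tnmd (-3.24, SE 0.38), Des (-2.51, SE 0.33) and the bone gene Phex (-1.93, SE 0.41). Their part was not tested. With T1 replicate 3 placed in T2, the fallen genes were 3 of 17, 0 of 8 and 0 of 11 in the first 3 of these lists. That fit called only 9 of 36685 probe sets in either direction at this step, against 327 in the main fit. Its low counts thus came with a loss of calls over the whole array. Without T1 replicate 3 the fallen genes were 12 of 17, 6 of 8 and 8 of 11, in a fit that also called fewer probe sets than the main fit.

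The other sarcomeric myosins had no called step in T1 or T2. Of 5 measured genes in that list, among them the heart chains Myh6 and Myl7, none was called in either step. The furthest was Myh14 at -0.43 (SE 0.20) in T1, which is a non-muscle heavy chain although the list held it. Myh6 lay between 3.37 and 4.43 in all arrays and Myh15 between 2.89 and 3.69, below the array medians of 4.94 to 5.28. Myh7b and Myl7 lay near those medians in T0 to T2, with stage means of 4.70 to 5.41. A fall could hardly be read from such dim signals, so the lack of calls does not set these genes apart from the skeletal myosins. Over the longer interval of T2 against T0, Myh14 fell by 0.71 (SE 0.20). Of 9 non-muscle and smooth muscle myosins and their partners, 1 fell in T1, Myh10, a non-muscle heavy chain (-1.50, SE 0.23). Among 7 cardiac-restricted markers only Tnnt2 fell in T1 (-3.87, SE 0.24), with 4.70, 4.80 and 4.73 in T1, against 8.93, 8.64 and 8.26 in T0. Tnnt2 is the heart troponin T, which developing skeletal muscle also expresses.

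In T4 against T3 a few sarcomere genes were called in each direction. Acta1 rose by 1.55 (SE 0.31), Tnni2 by 1.18 (SE 0.29) and Eno3 by 1.13 (SE 0.28), while Tpm3 and Tpm1, tropomyosins that other cells also make, fell by 0.93 (SE 0.24) and 1.06 (SE 0.35). Acta1 had 7.51, 8.38 and 7.16 in T4, against 5.62, 6.29 and 6.48 in T3, so all 3 arrays were higher. Of 8 thick filament partners none was called. Of the non-muscle and smooth muscle myosins 4 fell, among them Myl12b (-1.15, SE 0.23), and 1 rose, Myl6b (0.86, SE 0.31). For scale, 25.8% of all probe sets fell and 16.5% rose at this step.

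The patterns over all 15 arrays were described by Pearson correlation, which largely reflects the stage means that the arrays share. Myl1 and Mylpf correlated at 0.980 and Myh7 and Myl3 at 0.953, and the lowest value was 0.634 between Myh8 and Myh7. Pairs of a fast light chain with Myh7 or Myl3 were not far below, from 0.843 (Myh7 and Mylpf) to 0.903 (Myl3 and Mylpf). Myh8 correlated with the light chains at 0.766 (Myl1) to 0.824 (Mylpf). The genes most like Myh8 were Epyc (0.991), a small cartilage proteoglycan, Bex1 (0.990), Tnnt2 (0.988), Scn3b (0.987) and Fndc3c1 (0.986). Those most like Myh7 were Ankrd2 (0.956), Myoz2 (0.947), Tnnt1 (0.918), Tnni1 (0.911) and Cryab (0.907). Those most like Myl1 were the giant filament proteins Neb (0.993) and Ttn (0.992), then Casq1 (0.985), Tnnc2 (0.985) and Tnnt3 (0.983).

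A pair of slow-fibre microRNA genes lie inside slow myosin genes, Mir208b in Myh7 and Mir499a in Myh7b. Their mature forms are shown with the seed, bases 2 to 8, in capitals, because these are the sequences made from the host transcripts (RefSeq, GRCr8).
rno-miR-208b-3p: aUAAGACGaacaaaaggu
rno-miR-499-5p: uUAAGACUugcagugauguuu

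Mir208b lay below the median of the olfactory receptor genes of its own array in all 15 arrays, so no change can be read from it. Mir208b had 2.07, 2.21 and 2.32 in T2, against 2.76, 2.30 and 2.46 in T0. Mir499a had 6.12, 5.34 and 5.81 in T4, against 3.06, 4.06 and 2.85 in T3, and rose by 2.43 (SE 0.32, limma adjusted p = 0.000236). The olfactory receptor genes, which mark the dim end of the array, were higher in T4 too, and their part in the Mir499a value was not tested.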

How the data were processed

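Total RNA extracted with Trizol was labelled with biotin and hybridised to Affymetrix RaGene 2.0 ST arrays, per the labels. The deposited log2 signals of 36685 probe sets were made by the authors with RMA (background correction, normalization of probe signals over arrays and a summary per probe set), per the submitters' processing notes. RMA partly removes a change shared by most transcripts. The sources used here name neither a version of RMA nor a genome build. The values were used as deposited, with medians per array from 4.94 to 5.28. The number of arrays limits the precision.

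Genes were taken from the platform annotation, updated through RefSeq. Stage means were estimated jointly from the 15 arrays in R 4.3.3 by limma 3.58.1, with Benjamini-Hochberg adjustment over all probe sets. The fit was tested on simulated data. Named genes were every measured myosin, up to 4 called genes per list with the smallest p (the largest change where none was called), and the 5 genes most like Myh8, Myh7 and Myl1. Genes of T1 replicate 3, the T1 minus T0 value of Actn3, values of Tnnt1, Tnni1, Tnnc2, Tnnt3 and Actn3 in single arrays, and the microRNAs were chosen after values were seen. The members and lists were chosen with earlier results of these data known. Replicate numbers did not pair samples. Alternatives covered scaling, filtering, spread models, samples in the fit and each array left out.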

Additional observations from a re-analysis of the deposited data

How the results depend on the processing

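The count of measured myosins called in T2 minus T0 (5) and over all stages (5, where 60.1% of all probe sets were called) was the same in every alternative run. In T1 minus T0 it was 4, then 1 with T1 replicate 3 placed in T2, and 2 to 4 with each array left out, the lowest without T1 replicate 3. In T2 minus T1 it was 2, and 1 to 4 with each array left out: 4 without T1 replicate 3, and 1 without T1 replicate 1, T1 replicate 2 or T2 replicate 3. With T1 replicate 3 placed in T2 it was again 2, but the called genes were Myh7 (-4.25, limma adjusted p = 0.000215) and Myl3 (-3.82, limma adjusted p = 0.000533), in place of Myl1 (limma adjusted p = 0.642) and Mylpf (limma adjusted p = 0.847). Only 9 of 36685 probe sets were called at T2 minus T1 with the array so placed, against 327 in the main fit. In T3 minus T2 the count of called myosins was 0, and 1 with array weights. That last fit called 10464 of 36685 probe sets at this step, against 55 in the main fit. In T4 minus T3 the count of called myosins was 0, where the main fit called 42.2% of all probe sets. It was 1 after quantile normalization, with array weights or with T1 replicate 3 placed in T2, and 0 to 1 with each array left out (1 without T1 replicate 3 or T3 replicate 3). The cause of these shifts was not tested beyond the arrays named.

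Of 2798 recomputed log2 changes of 109 results, 2667 kept their direction and their side of the threshold, 81 lost their call, 39 gained one, 11 uncalled values moved, and 0 called values changed sign. Replicate numbers did not pair the samples: correlations of same-numbered samples ran from -0.19 to 0.12, 1 of 15 pairs was over 0.1, and 3 of 15 samples matched their own number best. With the replicate number as a block, 4 myosins were called in T1 minus T0 and 2 in T2 minus T1. The fit with array weights stopped short of full convergence. Probe set 17646924 was too dim for the filter on dim probe sets, which gave it no value. The fit on the T0, T1 and T2 arrays alone and the list counts with arrays left out were chosen after seeing the data. The 3 arrays per stage and the lack of presence calls limit what can be said of dim probe sets.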
